A study of Caenorhabditis elegans with 2 samples.

Results

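The large ribosomal subunit protein genes of Caenorhabditis elegans were taken as all protein-coding genes of the WBcel235 annotation whose symbol starts with rpl-, which gave 47 of 19973 protein-coding genes. Their promoters were examined in a chromatin immunoprecipitation and sequencing study of JUN-1, a nematode relative of the transcription factor subunit JUN, in whole worms at the L4 stage, the last larval stage before adulthood. The series held 1 group of 2 biological replicates and therefore no contrast between conditions. Both replicates were strain OP234, which carries unc-119(ed3) III and the transgene wgIs234 with jun-1 fused to eGFP, a green fluorescent protein, and in both the sexes were pooled. The antibody is labelled jun-1, while the experiment is described as made against eGFP-jun-1. A transgene can be expressed at a level unlike that of the gene at its own locus, and whole worms mix all tissues, so a peak cannot be placed in a cell type. The labels number the replicates and do not say whether their cultures were grown apart. The control was not used here, beyond its part in the authors' peak calling.

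The cytosolic ribosome is built of a large and a small subunit, each a core of ribosomal RNA covered by proteins. The large subunit joins amino acids at its peptidyl transferase centre and lets the growing protein out through an exit tunnel. Ribosomal protein genes are among the most strongly expressed genes of growing animals, and their products are needed in matched amounts.

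Each gene was given the strongest peak summit found between 1000 bp before and 200 bp after any of its annotated transcript starts, here called its promoter window. This was done in the list of regions called on both replicates jointly (13085 regions), in those of replicate 1 (19396) and replicate 2 (23742), and in the 899 joint regions that passed the authors' reproducibility threshold, here called reproducible. The signal of a peak is the value the authors' caller gave it; no source used here states its scale, and it served only to describe peaks and rank them within a list. Read depth is unknown, since the lists hold no counts. The threshold list was the 899 strongest regions of the joint list, so its weakest peak has rank 899 in both.

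Of the 47 rpl genes, 17 had a reproducible promoter summit, which is 36.2% (95% exact binomial interval 22.7 to 51.5, counting error only). Over all protein-coding genes the share was 3.35%. In the joint list 41 rpl genes had a summit (87.2%), against 24.7% of all genes. In the list of replicate 1 there were 38 (80.9%, against 31.3%) and in that of replicate 2 there were 41 (87.2%, against 35.6%). Both replicate lists held a summit for 35 rpl genes (74.5%), against 20.4% of all genes, and 33 of them had a pair of summits within 100 bp of each other (70.2%, against 13.1%). Among the 899 strongest regions of each replicate list, 12 rpl genes were found in both (25.5%, against 2.13%). Most large subunit genes thus had a region called in their promoter window in each replicate by itself. Joint and replicate lists include background, per the file descriptions, so a summit in these lists alone need not be a site. Of the 41 joint-list summits, 24 lay below the threshold. The deposited -log10 q-value of these 24 was 2.32 at rpl-41.2, the strongest of them, and 0.0193 at rpl-41.1, the weakest.

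The strongest peaks were at rpl-3, rpl-15, rpl-35 and rpl-20, and these stood first in each replicate as well. The 101 bases around each joint summit are shown from the WBcel235 (ce11) genome, on the strand of the rpl gene, because these 4 peaks lead the family and carry the short shared sequences described further on, which are in capitals. The windows are chrIII:3867519-3867619 for rpl-3 (plus strand), chrIV:654878-654978 for rpl-15 (minus strand), chrIII:7854638-7854738 for rpl-35 (plus strand) and chrIV:4750012-4750112 for rpl-20 (minus strand).
rpl-3: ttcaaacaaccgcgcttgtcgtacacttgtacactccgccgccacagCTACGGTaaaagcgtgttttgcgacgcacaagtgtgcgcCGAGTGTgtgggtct
rpl-15: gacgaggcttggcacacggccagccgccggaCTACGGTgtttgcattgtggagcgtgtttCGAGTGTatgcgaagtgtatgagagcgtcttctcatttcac
rpl-35: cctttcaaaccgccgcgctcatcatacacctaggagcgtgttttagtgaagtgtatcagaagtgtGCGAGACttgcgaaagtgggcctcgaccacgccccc
rpl-20: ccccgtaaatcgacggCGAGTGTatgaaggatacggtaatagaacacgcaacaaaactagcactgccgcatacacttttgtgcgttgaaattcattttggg
The gene rpl-3 (WBGene00004414, chrIII:3867854-3869587) encodes a protein that reaches towards the peptidyl transferase centre. Its peak had a signal of 372 in the joint list, 174 in replicate 1 and 194 in replicate 2, at ranks 11, 14 and 10. The joint summit was 285 bp upstream of the start, and the summits of the 2 replicates were at the same base, 294 bp upstream. The peak of rpl-15 (WBGene00004427, chrIV:653480-654576), a protein of the subunit's core, had signals of 268, 136 and 130 in the same order. The peak of rpl-35 (WBGene00004449, chrIII:7855134-7855646), whose product sits at the mouth of the exit tunnel, had 239, 127 and 111. The peak of rpl-20 (WBGene00004432, chrIV:4749123-4749778) had 220, 106 and 116. All 4 kept ranks from 10 to 36 in every list, and the replicate summits of each were at most 21 bp apart. At rpl-3 and rpl-35 no other protein-coding gene had the peak in its window, while those of rpl-15 and rpl-20 were shared with K11H12.8 and Y17G9B.5.

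**Figure D1:**
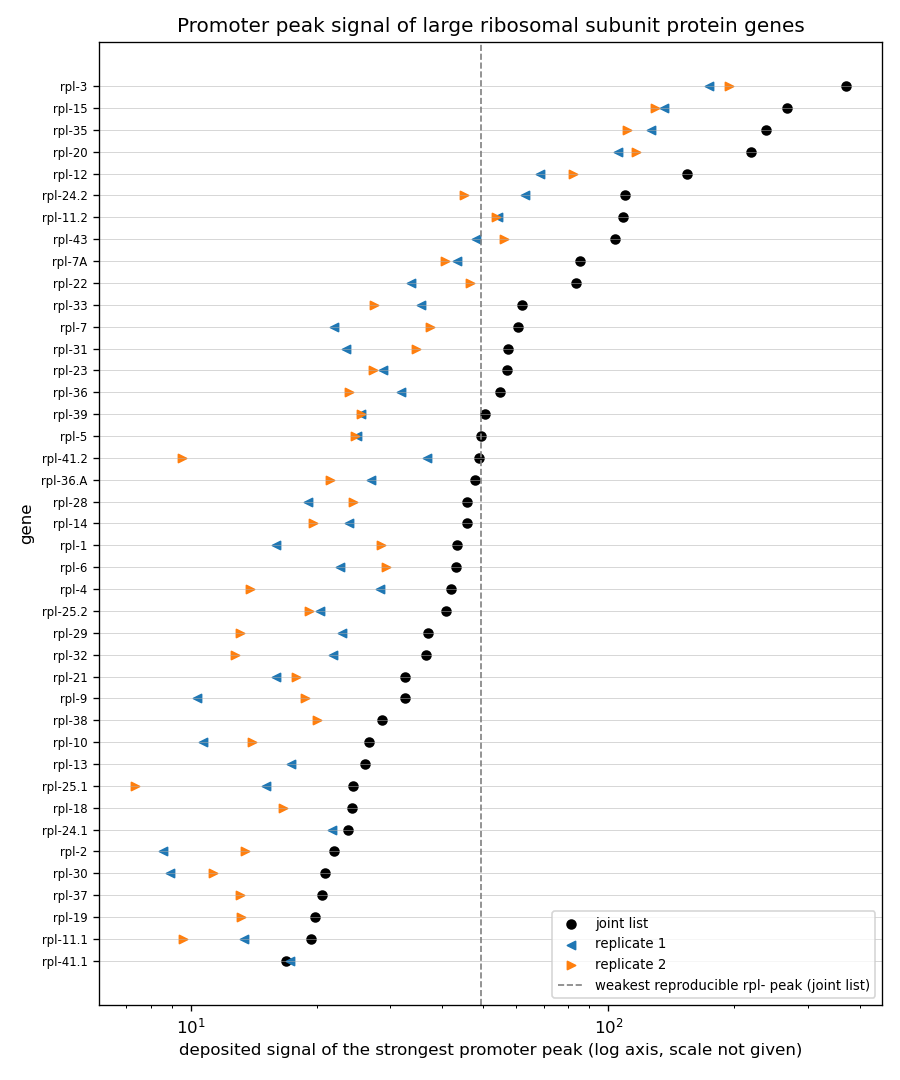
Deposited signal (log axis, scale not given) of the strongest promoter peak of each of the 41 rpl genes with a joint-list peak, with the joint list in black and the replicate lists in blue and orange. The dashed line marks the weakest reproducible rpl peak, rpl-5 at 49.6, and rpl-3 stands at the top with 372.

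Some other genes whose products line or flank the exit tunnel are named next, and these are not a full list of that kind. They ranged from a reproducible peak at joint rank 650, that of rpl-31, to no summit in the joint list. The peak of rpl-39, whose small protein lies in the tunnel wall, had signals of 50.7 in the joint list, 25.5 in replicate 1 and 25.6 in replicate 2, at joint rank 860. The peak of rpl-31, whose product lies at the tunnel exit, had 57.4, 23.6 and 34.6. The protein of rpl-4 extends into the tunnel, and its peak reached 41.9 in the joint list with 28.3 in replicate 1 and 13.8 in replicate 2, which fell short of the threshold. The replicates placed rpl-4 far apart, at ranks 768 and 5042. Of the further tunnel exit genes, rpl-25.2 had 40.8 and rpl-25.1 had 24.4 in the joint list. The genes rpl-17 and rpl-26 had a summit in replicate 2 alone, at signals of 8.38 and 10.2.

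Genes of the 5S particle and of the stalk base had reproducible peaks at rpl-12, rpl-11.2 and rpl-5, with joint signals of 155, 108 and 49.6. RPL-5 and RPL-11 bind the 5S ribosomal RNA and enter the subunit with it. The peak of rpl-5 had signals of 49.6, 25.04 and 24.6 and was the very last of the threshold list, at rank 899. The peak of rpl-11.2, on chromosome X, had 108, 54.5 and 53.8, at ranks 137, 139 and 158, and was in no other gene's window. The other RPL-11 gene, rpl-11.1, had a joint signal of only 19.4, at rank 9028 and below the threshold. RPL-12 forms the base of the stalk that binds translation factors, and its gene's peak had 155, 68.4 and 82.2, at joint rank 59. That summit lay 33 bp upstream of the rpl-12 start, the closest of the reproducible ones, with the start of lin-54 on the other strand 360 bp away. The stalk protein gene rla-0, which is not an rpl gene, had no joint-list summit.

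The rest of the reproducible peaks ranged from 109 to 55.0 in joint signal. The peak of rpl-24.2, the counterpart of a human ribosome assembly factor rather than of a mature ribosomal protein, had signals of 109, 63.0 and 45.2. Its summit at I 9669270 lay in an intron of C03D6.1, whereas the other 16 reproducible summits were intergenic with respect to protein-coding genes. The peak of rpl-43, a zinc-binding protein gene, had 104, 48.1 and 56.4, and its summit was the farthest from its own start, 751 bp upstream. That summit was 170 bp from the start of Y48B6A.1 on the other strand. The peak of rpl-7A had 85.3, 43.3 and 40.5, and that of rpl-22 had 83.8, 33.6 and 46.7. The peaks of rpl-7A, rpl-22 and rpl-43 kept joint ranks from 151 to 282, with replicate ranks from 139 to 502.

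Among the weaker reproducible peaks, the replicates ranked some genes far apart and others alike. The peak of rpl-33, the counterpart of human RPL35A, had 62.1, 35.7 and 27.4, with replicate summits 106 bp apart, the widest gap among the 17. The peak of rpl-7 had 60.9, 22.04 and 37.3, at ranks 1395 and 418 in replicates 1 and 2. The peak of rpl-23, whose protein lies at the subunit interface, had 57.1, 28.9 and 27.3. The peak of rpl-36 had 55.0, 31.8 and 23.9, at ranks 587 and 1229. Of the 17 genes, 10 ranked higher in replicate 1 and the others in replicate 2, so neither replicate was higher throughout.

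A further 24 rpl genes had a joint-list summit below the threshold, with signals from 16.9 to 49.0 and a median of 30.6. The strongest 5 of these were rpl-41.2 (49.0), rpl-36.A (47.9), rpl-28 (45.9), rpl-14 (45.7) and rpl-1 (43.4), at joint ranks from 934 to 1228. Just inside the threshold stood rpl-5 at 49.6, rpl-39 at 50.7 and rpl-36 at 55.0, so the members on either side differed little in joint signal. The peak of rpl-41.2 ranked far higher in replicate 1, at 409 with a signal of 36.8, than in replicate 2, at 13557 with a signal of 9.52. The peak of rpl-1 went the other way, with 15.999 in replicate 1 and 28.5 in replicate 2, at ranks 3269 and 805. The ranks in replicates 1 and 2 were nearer to each other for rpl-36.A (862 and 1562), rpl-28 (2032 and 1175) and rpl-14 (1138 and 1961). Among the weaker joint peaks, rpl-18, rpl-19, rpl-37 and rpl-38 had no summit in replicate 1, and rpl-13, rpl-24.1 and rpl-41.1 had none in replicate 2.

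There were 6 rpl genes without a joint-list summit in the window. Of these, rpl-27 had weak summits in both replicate lists, 8.89 in replicate 1 and 8.19 in replicate 2, and these were 207 bp apart. The genes rpl-16, rpl-34 and rpl-42 had no summit in any list, and their nearest joint summits were 1715, 1479 and 2988 bp from a start. In these lists that says only that no region was called there, since depth and mappability cannot be read from them.

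Where a shared number marks related genes, the members of each pair had unlike joint signals. The joint signal was 108 at rpl-11.2 and 19.4 at rpl-11.1, whose replicate summits were 685 bp apart. It was 109 at rpl-24.2 and 23.8 at rpl-24.1, the counterpart of the mature ribosomal protein, with a replicate 1 signal of 21.8. It was 40.8 at rpl-25.2 and 24.4 at rpl-25.1, and 49.0 at rpl-41.2 and 16.9 at rpl-41.1. The gene with the higher joint signal was also higher in replicate 1 in each of these pairs, and in replicate 2 wherever both had a summit. These are single peaks in 2 replicates, the pairs were picked after their values were seen, and no test of the differences was made.

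Most reproducible peaks of the family could not be given to the rpl gene alone. Of the 17, 13 lay in the window of another protein-coding gene, and at 12 of these the other gene started on the opposite strand, head to head with the rpl gene. The head-to-head share over all genes was not counted. The peak in no other gene's window was found at rpl-3, rpl-35, rpl-24.2 and rpl-11.2, which is 8.51% of the 47 genes, against 1.76% of all genes. As a share of the genes with a reproducible peak, unshared peaks made 23.5% in the rpl family and 52.6% (352 of 669) over all genes. With each summit given only to the gene of nearest start, 10 rpl genes kept it (21.3%, against 2.53%). For rpl-20, rpl-43, rpl-22, rpl-33, rpl-31, rpl-36 and rpl-5 the partner's start was nearer.

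The partners were of many kinds, and some were themselves ribosomal protein genes. The peak of rpl-36 lay 258 bp from the start of rps-14, a small subunit protein gene, and was also in the window of ndab-2. The peak of rpl-39 lay 272 bp from the start of rps-30, another small subunit gene, and was also in the window of C26F1.3. The joint-list peak of rpl-24.1 was shared with rps-10, and that of rpl-28 with mrpl-49, a mitochondrial ribosomal protein gene. Further partners were ify-1 at rpl-22, farl-11 at rpl-33, rab-11.1 at rpl-7, set-21 at rpl-7A, sac-2 at rpl-31 and col-38 at rpl-5. At rpl-31 the start of sac-2 was 18 bp from the summit and the rpl-31 start 287 bp. At rpl-23 the sharing gene, swp-1, was on the same strand with its start 889 bp away. In all, 26 of the 41 joint-list peaks were shared, and none lay within 250 bp of a tRNA, snoRNA, snRNA or miRNA gene. The like shares over all joint-list promoter peaks were not counted, so neither count can be called a trait of the family.

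The summits of the family gathered in a narrow stretch upstream of the gene. The median position of the 17 reproducible summits was 287 bp upstream of the nearest own start, with quartiles at 384 and 265 bp, and 13 of them (76.5%) lay from 200 to 500 bp upstream. Over the 669 genes with a reproducible summit, 260 (38.9%) lay in that stretch, with a median of 258 bp upstream and quartiles at 461 and 146 bp. In the joint list the stretch held 31 of 41 rpl summits (75.6%) and 1473 of 4924 over all genes (29.9%), with medians of 295 and 239.5 bp upstream. Only the median position was planned beforehand and the stretch from 200 to 500 bp was not, so its shares are descriptions of these summits. The exceptions among the reproducible peaks were rpl-12 (33 bp), rpl-7A (56 bp) and rpl-24.2 (145 bp) nearer to the start and rpl-43 (751 bp) farther from it. Positions are relative to annotated transcript starts, and most worm genes are trans-spliced, so an annotated start may lie downstream of where transcription begins.

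**Figure D2:**
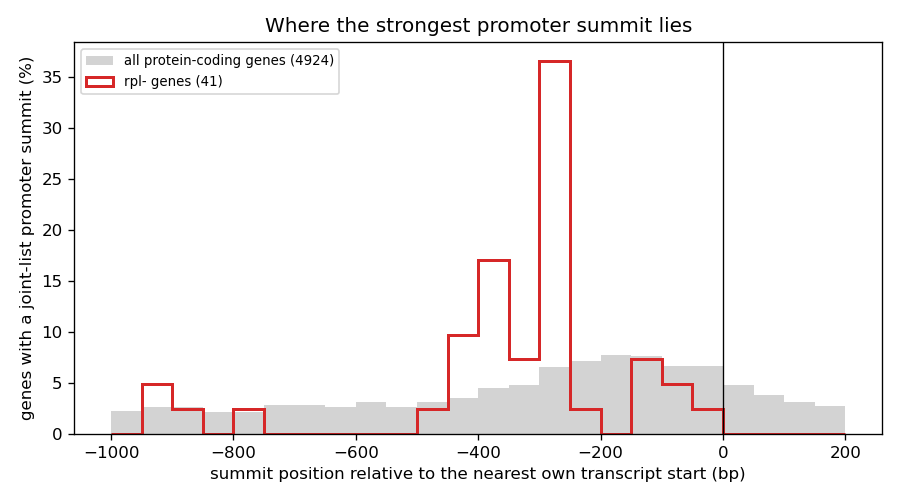
Position of the strongest joint-list promoter summit relative to the nearest own transcript start (bp, negative upstream), as a percentage of genes per 50 bp, for 41 rpl genes (red line) and all 4924 protein-coding genes with such a summit (grey). The rpl genes gather from 200 to 500 bp upstream, a stretch not planned beforehand, with 31 of 41 in it.

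No summit inside an rpl gene was reproducible. Joint-list summits within the gene span were found in 7 rpl genes, and the share over all genes was not counted. The strongest was in rpl-3, 1413 bp downstream of a start, with a signal of 35.1 at joint rank 1988. That is above the median of 30.6 of the rpl promoter summits below the threshold. Counted by location, the joint-list promoter summits below the threshold were intergenic in 18 genes, intronic in 4, in a coding exon in 1 (in glit-1, beside rpl-25.1) and in an untranslated exon in 1 (in ints-11, beside rpl-10).

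The 2 replicates ranked the rpl genes much alike. Over the 35 genes with a summit in both replicate lists, the signals had a Spearman's rho of 0.775, and their log2 values a Pearson's r of 0.87. Over all protein-coding genes, with each of 3498 peak pairs counted once, rho was 0.559 and r was 0.72. These are descriptions across genes, which are not replicates and which share the library, its depth and the control. The strongest summits of the 2 lists were within 100 bp of each other for 32 of the 35 genes, with a median gap of 12 bp among the 17 with a reproducible peak. The median signal of the strongest promoter peak was 23.7 for rpl genes and 12.4 for all genes in replicate 1, and 21.5 and 11.2 in replicate 2. In the joint list these medians were 45.7 and 24.7.

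**Figure D3:**
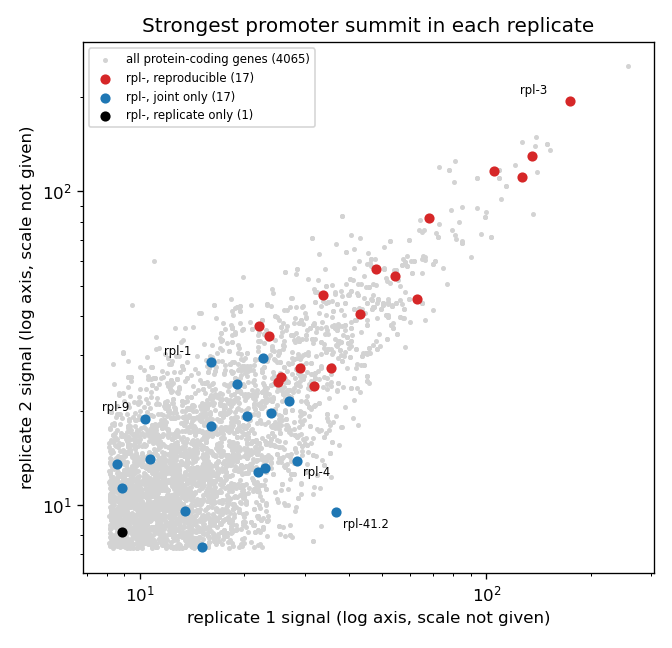
Signal of the strongest promoter summit in replicate 1 (x axis) and replicate 2 (y axis), both log axes on a scale not given, for 4065 protein-coding genes (grey) and 35 rpl genes, which are red where reproducible, blue where in the joint list only and black where in the replicate lists only. The rpl genes lie along the diagonal, with rpl-41.2 (36.8 and 9.52) the farthest below it.

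Short sequences recurred at the rpl summits. Every run of 7 bases, on either strand, was counted in the 101 bases around the summits, and those most in excess in the 41 rpl windows over the 4165 joint-list promoter peaks were taken, leaving out runs that shared 5 or more bases with one already taken. The 4165 are the strongest joint-list promoter summits of all protein-coding genes, each counted once. The 4 that resulted were chosen on these same windows, so their shares in rpl peaks are descriptions of the choice. ACACTCG (other strand CGAGTGT) was in 11 of 41 rpl windows (26.8%), against 1.22% of all joint-list promoter peaks, the rpl peaks included, and 0.576% of windows of the same length centred 287 bp upstream of the outermost start of every protein-coding gene. ACCGTAG, or CTACGGT on the other strand, was in 9 windows (21.95%, against 0.912% and 0.521%). CTGAGTA, or TACTCAG, was in 7 windows (17.1%, against 0.888% and 0.581%). GCGAGAC, or GTCTCGC, was in 12 windows (29.3%, against 2.55% and 0.946%). At least 1 of the 4 was in 13 of the 17 reproducible and 26 of the 41 joint-list rpl windows (76.5% and 63.4%), and in 4.99% of all joint-list promoter peaks. A match is a stretch of letters and not a shown binding site.

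The small subunit genes, which played no part in choosing the 4 sequences, carried them too. At least 1 was in 13 of 23 joint-list windows of rps genes outside the rpl peaks (56.5%, 95% exact binomial interval 34.5 to 76.8). By sequence, ACACTCG was in 5, ACCGTAG in 1, CTGAGTA in 4 and GCGAGAC in 5 of the 23. In the 18 windows of mitochondrial large subunit genes none was found, which allows a share of up to 18.5%. Unlike the rps set, these 18 include an rpl window, that of rpl-28 and mrpl-49, which had entered the choice of the 4. Base composition moved with these shares, since the median GC content was 47.5% in rpl joint-list windows and 39.6% over all joint-list promoter windows, and 49.5% and 48.5% in the reproducible ones. Its part in the shares was not tested. Among reproducible promoter peaks, whose GC content was close to that of the rpl ones, 64 of 519 windows (12.3%) held at least 1 of the 4. The 519 are all reproducible summits in a promoter window and not only the strongest of each gene.

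The first of the 4 sequences and the first 6 bases of the second stood side by side at several genes. CGAGTGT, 1 free base and then ACCGTA were found in that order at rpl-11.2, rpl-22, rpl-6, rpl-29, rpl-21, rpl-24.1 and rpl-19. The windows below show this arrangement at 4 of them, with the whole ACCGTAG at rpl-11.2 and rpl-6 and only ACCGTA, left in lower case, at rpl-29 and rpl-21. They also show the CTGAGTA and GCGAGAC sequences at rpl-23 and rpl-39, and the capitals mark whole matches to the 4 sequences. All are on the strand of the rpl gene in WBcel235, at chrX:2242952-2243052 for rpl-11.2 (minus), chrIII:7208008-7208108 for rpl-6 (plus), chrIV:13881895-13881995 for rpl-29 (plus), chrIII:8130472-8130572 for rpl-21 (minus), chrIII:5706364-5706464 for rpl-23 (minus) and chrV:7776256-7776356 for rpl-39 (minus).
rpl-11.2: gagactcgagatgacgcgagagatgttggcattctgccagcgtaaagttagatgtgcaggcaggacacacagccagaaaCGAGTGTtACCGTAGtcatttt
rpl-6: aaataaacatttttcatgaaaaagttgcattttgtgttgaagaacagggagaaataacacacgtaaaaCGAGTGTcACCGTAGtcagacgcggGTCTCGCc
rpl-29: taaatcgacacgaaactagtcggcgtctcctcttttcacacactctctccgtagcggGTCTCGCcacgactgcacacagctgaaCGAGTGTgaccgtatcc
rpl-21: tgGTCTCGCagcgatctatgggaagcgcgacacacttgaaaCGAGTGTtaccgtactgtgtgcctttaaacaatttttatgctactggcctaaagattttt
rpl-23: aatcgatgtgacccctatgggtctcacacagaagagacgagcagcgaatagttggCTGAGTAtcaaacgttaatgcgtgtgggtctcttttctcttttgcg
rpl-39: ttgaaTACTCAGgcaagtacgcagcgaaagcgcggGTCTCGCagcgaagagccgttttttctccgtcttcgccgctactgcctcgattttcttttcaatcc
The arrangement was in 2 of the 47 upstream windows of rpl genes (4.26%) and in 11 of all 19973 upstream windows (0.0551%). At joint-list summits it was in 7 of 41 rpl windows (17.1%), in 5 of 23 rps windows (21.7%) and in 17 of all 4165 promoter windows (0.408%). It was noticed in these windows and then counted. In the whole nuclear genome it occurred 30 times, of which 9 were in promoter windows of rpl genes, 5 in those of rps genes, 14 in those of other protein-coding genes and 2 in none, with the site that rpl-24.1 shares with rps-10 counted under rpl. A joint-list summit lay within 100 bp of 7, 5, 9 and 0 of these, and a reproducible one within 100 bp of 2, 2, 5 and 0. The other rpl sites were at rpl-1, 130 bp from its nearest joint summit, and at rpl-34, which had no summit in any list, with the nearest joint summit 1058 bp away. So the arrangement occurred without a called peak, and strong peaks such as those of rpl-35 and rpl-12 lacked it.

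**Figure D4:**
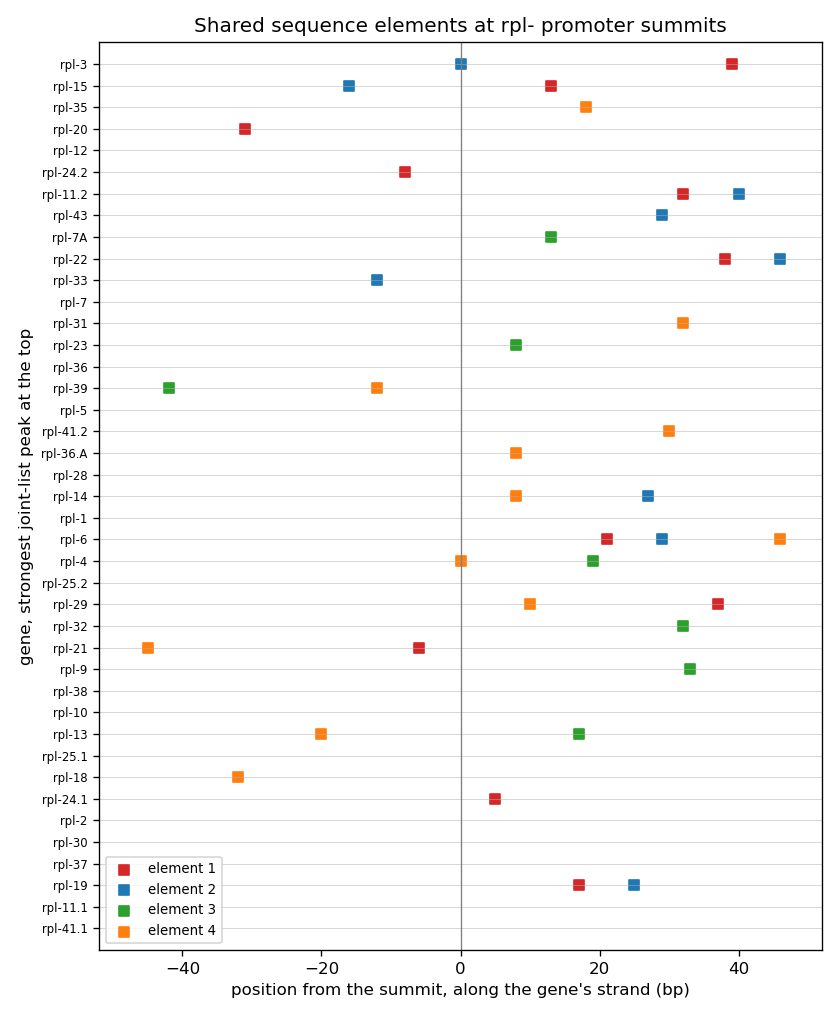
Positions of the 4 shared sequences (element 1 ACACTCG, 2 ACCGTAG, 3 CTGAGTA, 4 GCGAGAC, either strand) within 50 bp of the joint-list summit of each of 41 rpl genes, along the gene's strand in bp, with the strongest peak at the top. At least 1 occurs at 13 of the 17 reproducible peaks and at 26 of all 41, and 15 of the genes show none.

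The number of these sequences did not order the peaks by strength, though the windows with none had the lowest median signal. Joint signals had a median of 28.7 (range 16.9 to 155) in the 15 windows with none, 57.3 (23.8 to 239) in the 14 with 1 and 45.7 (19.8 to 372) in the 11 with 2. The only window with 3, at rpl-6, had 43.1. Reproducible peaks numbered 4, 8, 5 and 0 in these classes. The reproducible windows without any of them were those of rpl-12, rpl-7, rpl-36 and rpl-5. Along the gene's strand, ACACTCG was read on the opposite strand at 10 of 11 sites and ACCGTAG as written at 7 of 9. The median site was 17 bp downstream of the summit for ACACTCG, 27 bp for ACCGTAG, 17 bp for CTGAGTA and 8 bp for GCGAGAC.

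A list of 6 familiar recognition sequences was searched in the same windows, and for each the share in the 41 joint-list rpl windows is set beside that in all 4165 joint-list promoter windows and in the windows upstream of all genes. The GA repeat GAGAGA (other strand TCTCTC) was in 6 of 41 (14.6%, against 15.1% and 6.11%). In the reproducible list it was in 2 of 17 rpl windows (11.8%, 95% exact binomial interval 1.46 to 36.4) and in 141 of all 519 promoter windows (27.2%). The AP-1 pattern TGANTCA, with any base at N, is broader than the textbook site of JUN with FOS that it includes. It was in 0 of 41, which allows a share of up to 8.60%, against 4.56% and 3.15%. The cAMP response sequence TGACGTCA was in 0 of 41 as well, against 0.960% and 0.596%. The E-box CACGTG was in 1 of 41 (2.44%, against 2.62% and 1.54%) and the CCAAT box, searched also as ATTGG, in 5 (12.2%, against 17.9% and 19.0%). The GATA sequence GATAA, searched also as TTATC, was in 6 (14.6%, against 24.2% and 23.5%). For each of the 6 the exact binomial interval of the share in the 41 rpl windows included the share over all joint-list promoter windows.

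Some rpl windows have copies elsewhere in the genome. At a BLAST e-value of 0.001, 20 of the 41 joint-list windows had no match outside themselves. The windows of rpl-31, rpl-19, rpl-12 and rpl-7A had 72, 13, 11 and 11 other matches, and a match of rpl-7A spanned all 101 bases. No source used here says how such copies were handled when reads were placed, and their part in these signals was not tested. The 4 strongest peaks had no other match, apart from a single one of 38 bases at rpl-35.

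Small subunit genes showed promoter peaks at shares close to those of the large subunit genes, and mitochondrial ones at lower shares. Of 31 rps genes, 12 had a reproducible summit (38.7%, 95% exact binomial interval 21.9 to 57.8) and 26 a joint-list one (83.9%). The strongest were rps-1 (218), rps-12 (184) and rps-19 (171), below the 4 strongest rpl peaks. Of 41 mrpl genes, 4 had a reproducible summit (9.76%, interval 2.72 to 23.1) and 18 a joint-list one (43.9%). In both replicate lists the counts were 24 of 31 (77.4%) and 10 of 41 (24.4%, interval 12.4 to 40.3). Over all protein-coding genes the shares were 3.35% for reproducible summits, 24.7% for joint-list ones and 20.4% for both replicate lists. The mrpl interval included the all-gene share for reproducible summits and for both replicate lists. For joint-list summits the mrpl interval, 28.5 to 60.3, lay above it. The stalk protein genes rla-0, rla-1 and rla-2 and the ubiquitin fusion genes ubq-2 and ubl-1 had 4 joint-list summits and 0 reproducible ones among the 5. The strongest of these, ubq-2, stood at 48.2, just short of the threshold. Of 17 genes of ribosome assembly and ribosomal RNA synthesis, 2 had a reproducible summit (11.8%) and 9 a joint-list one (52.9%). These 2 were fib-1, the fibrillarin gene of ribosomal RNA methylation, at 92.4 and pro-1, a gene of ribosomal RNA processing, at 59.7. The shares are set side by side without a test of their difference. Some peaks count on both sides, since rps-14, rps-30, rps-10, mrpl-49 and lpd-7 share theirs with rpl genes.

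**Figure D5:**
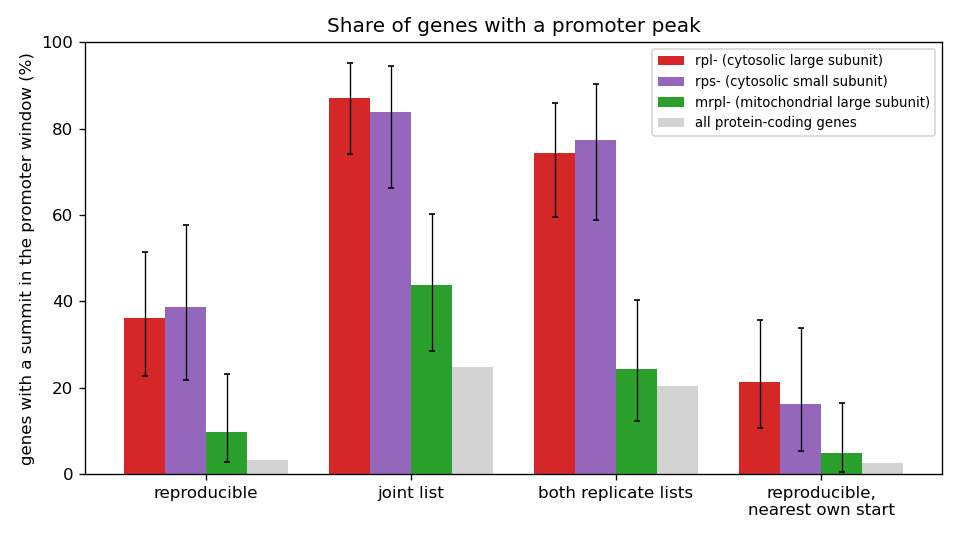
Percentage of genes with a promoter summit by 4 definitions for 47 rpl, 31 rps and 41 mrpl genes and all 19973 protein-coding genes (grey), with 95% exact binomial intervals as error bars on the gene groups. The rpl and rps bars are of like height in each definition, such as 36.2% and 38.7% for reproducible summits, and the mrpl bars are lower.

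The rpl genes and their peaks were spread over all chromosomes. Chromosome I held 15 rpl genes, of which 3 had a reproducible summit, and chromosomes II, III and IV held 9, 9 and 7, with 4 each. Chromosome V held 5 with 1 reproducible, rpl-39, and X held 2 with 1 reproducible, rpl-11.2. Over all protein-coding genes the reproducible share ran from 2.18% on V to 4.70% on III, against 36.2% for the rpl genes as a whole. Intronic snoRNA genes were annotated in 8 rpl genes, namely rpl-2, rpl-4, rpl-6, rpl-7, rpl-7A, rpl-15, rpl-24.1 and rpl-26, and 3 of these, rpl-7, rpl-7A and rpl-15, had a reproducible peak. The family is compact, with a median gene length of 753 bp against 2027 bp over all protein-coding genes, and both medians of transcript starts per gene were 1.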

How the data were processed

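The series measured sites of tagged JUN-1 in 2 replicates of whole L4 worms by chromatin immunoprecipitation. Per the labels, the authors aligned reads and made peak regions on the ce10 and ce11 builds. A control entered the calling, per the file descriptions. No source used here names the aligner, the caller or their versions. The deposited signal is a value per peak on an unstated scale, and the deposited -log10 q-value runs from 0.0176 to 3.01 in the joint list and set no threshold here. Joint and replicate lists include background, per the file descriptions, as they were input to the reproducibility step. The ce10 lists were not used here. The sequence of the rpl-22 window is not reported here.

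Summits were set against WBcel235, which is ce11, and Ensembl release 115 starts, and all region ends lay within the chromosome lengths. Sequences were read from the RefSeq WBcel235 genome. With 1 group there was no contrast to test, so shares stand beside those of all 19973 protein-coding genes, without p-values. Every reproducible member, the 5 strongest below the threshold, members in no list, sharing genes and the 3 strongest related genes were to be named. Other genes named were chosen after their values were seen. The members and lists were chosen with earlier results of these data known. Of the 21 assembly genes listed, 17 were found by symbol. Window assignment was tested on 200 simulated peaks, of which 200 were recovered. The tools were BLAST+ 2.17.0, pandas 2.3.3 and numpy 2.4.6 in Python 3.11.15, with scipy 1.17.1 and matplotlib 3.10.9.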

Additional observations from a re-analysis of the deposited data

How the results depend on the processing

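Of 39 alternatives, 5 moved a count by more than 1.5 times. The count of rpl genes with a reproducible summit was 10 among the stronger 449 peaks and 4 with peaks in no other gene's window, both of which hold fewer peaks by construction. It was 16 to 17 under the others. For a single replicate, here and below, the 899 strongest regions of its own list stood in for the reproducible ones. Those counts, 16 for either replicate, are therefore not of reproducible summits, and 12 genes were found in both. The count in both replicate lists was 12 among the 899 strongest regions and from 30 to 40 otherwise. GAGAGA counts were 1 within 25 bp of the summit, and from 1 to 2 on a single replicate. Joint-list counts ran from 37 to 43, counts by nearest start from 7 to 10 (9 to 10 on a single replicate), rank correlations from 0.722 to 0.860 (with 0.869 for Pearson's r on log2 values) and median positions from -307.5 to -284.5 bp (-307.5 to -298 on a single replicate). No paired analysis was possible because the series holds 1 group. Depth is unknown, so the lists set no limit below which a peak would be missed, and signals of different lists need not share a scale.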

Other observations

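Longer stretches of sequence were also identical between rpl summit windows, counted on either strand from 12 bases upward. The longest were 23 bases, shared by rpl-11.2 and rpl-19 and by rpl-32 and rpl-13, and each of these occurred 2 times in the nuclear genome, once per window. The windows of rpl-21 and rpl-24.1 shared 20 bases, which occurred 3 times. A run of 17 bases common to rpl-7A and rpl-32 occurred 6 times, and 1 of 17 bases common to rpl-43 and rpl-28 occurred 28 times. The run shared by rpl-31 and rpl-14, of 15 bases, occurred 797 times. The windows of rpl-12 and rpl-36, which held none of the 4 short sequences, shared 13 bases that occurred 4 times.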
